A study of Mus musculus with 17 samples.

Results

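The flavin-containing monooxygenases described here are 4 genes, Fmo1, Fmo2, Fmo4 and Fmo5, taken by their symbols from a table of 48440 genes measured in mouse liver. All 4 passed the filter on low values, a mean normalized count of at least 10 over the 17 libraries, as did 14588 genes in all.

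Flavin-containing monooxygenases are enzymes of the endoplasmic reticulum that use NADPH and oxygen, through a bound flavin, to oxidise nitrogen and sulfur atoms of drugs, dietary amines and sulfur compounds. FMO1 also turns hypotaurine into taurine, FMO2 is best known as a lung enzyme, FMO4 is the least studied of the 4, and FMO5 differs from the others in that it mainly oxidises carbonyl compounds. Several members of the family are known to be expressed differently in the livers of male and female mice.

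The study compared polyadenylated liver RNA of B6 mice in 3 groups. There were 6 libraries of young wild type at 2 months (4 male, 2 female), 5 of old wild type at 2 years (3 male, 2 female), and 6 of mice with a miR-29 transgene, also at 2 months (5 male, 1 female). B6 is a common inbred black laboratory strain, and miR-29 is a small RNA that lowers messages with a matching site in the 3′ untranslated region. The labels name neither the promoter of the transgene nor the cells that express it. The series title asks whether miR-29 drives ageing phenotypes, so each gene is given with age, with the transgene, and in transgenic against old liver. Library preparation came in 2 batches, with the TruSeq kit for batch A (10 libraries) and the NEBNext Ultra II Directional kit for batch B (7 libraries, all male). Labelled sex matched Xist and Ddx3y in 17 of 17 libraries, and the miR-29 precursor genes were listed at 0 in every library, so the product of the transgene was not measured. Library totals of normalized counts lay between 28077000 and 44543900. These are not sequencing depths, which are unknown. The labels do not say that each library came from a separate animal, so p-values measure the spread between libraries.

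Fmo4, Fmo1 and Fmo2 lie side by side on the minus strand within 105.5 kb of chromosome 1 in GRCm38, the assembly also called mm10 (GENCODE M21 annotation). Fmo4 (ENSMUSG00000026692) is at chr1:162793188-162813972, Fmo1 (ENSMUSG00000040181) at chr1:162829561-162866610 and Fmo2 (ENSMUSG00000040170) at chr1:162874317-162898726. Fmo5 (ENSMUSG00000028088) stands apart from them on the plus strand at chr3:97628804-97655282. None of the 4 overlaps another annotated gene on either strand. The mature miR-29 sequences from RefSeq are shown because the transgenic mice carry a miR-29 gene. Capitals mark the seed, bases 2 to 8, which the 3 forms share.
miR-29a-3p: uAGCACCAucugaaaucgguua
miR-29b-3p: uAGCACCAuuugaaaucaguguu
miR-29c-3p: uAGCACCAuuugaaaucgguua
Its complement, TGGTGCT, was looked for in each gene's 3′ UTR, taking the longest in the annotation. It was present in 2758 of 20846 genes (13.2%) with such a UTR of at least 30 bases, and in Fmo4 alone among the 4 genes. The Fmo4 match lies at chr1:162793894-162793900, on the minus strand, 58 bases into the 3′ UTR, and is present in both complete coding transcripts of the gene. It is shown with its flanks, the match in capitals.
Fmo4 site: ctttaaacagatTGGTGCTgctctcaacac
The longest 3′ UTRs of Fmo1 (782 bases), Fmo2 (2411 bases) and Fmo5 (3455 bases) hold no such match. A match of 7 letters is a description of sequence and does not show that the message is bound.

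The levels of the 4 messages spanned a wide range. Per kilobase of the longest coding transcript, Fmo5 was highest in wild type at 2 months, at 4250 ± 2411 normalized counts (SD, n = 6), followed by Fmo1 at 1841 ± 1349, Fmo2 at 167 ± 185 and Fmo4 at 91.7 ± 49.1. The order of the means was the same in old and in transgenic liver. Fmo1 stood above Fmo2 in 17 of 17 libraries on this scale, and Fmo5 above Fmo1 in 16 of 17. Fmo2 stood above Fmo4 in 13 of 17, and the 4 libraries in the other order were all young wild-type males. Over the libraries of young wild type, the ranges of Fmo5 and Fmo1 overlapped, as did those of Fmo2 and Fmo4. With the shorter first-listed transcript of Fmo4 and Fmo5 as the length, the order of the means stayed the same. Of the other family rows described here, Fmo6, the neighbour of Fmo2, reached at most 5.0 normalized counts in any library and Fmo9 was listed at 0 in all of them.

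**Figure D1:**
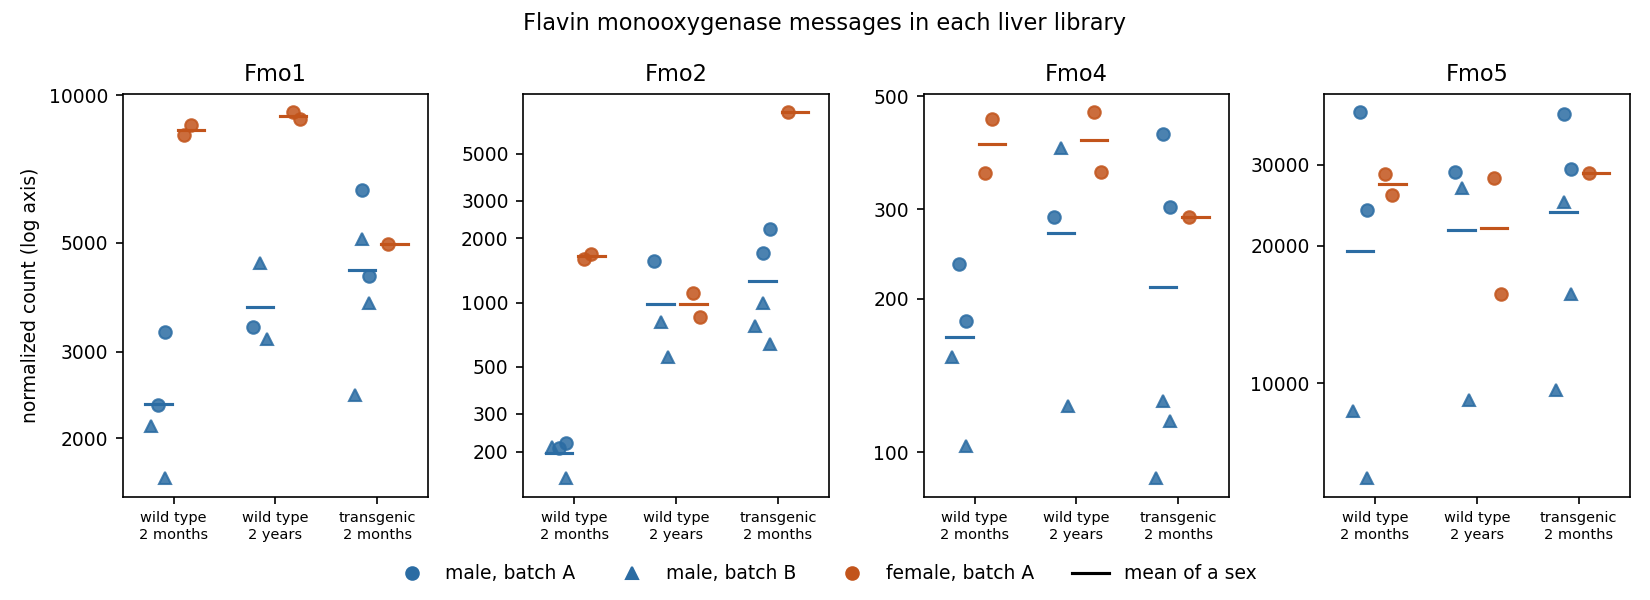
Normalized counts (log axis, a separate scale for each gene) of Fmo1, Fmo2, Fmo4 and Fmo5 in each of 17 liver libraries, by group. Colour marks sex, shape marks batch and each bar is the mean of a sex. Young wild-type males lie between 149.5 and 218.8 for Fmo2, below every other library.

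Sex was examined in wild type, where both ages hold males and females. Fmo1 was higher in females at both ages. In young wild type its normalized counts were 8281.5 and 8709.6 in the 2 females, against 1655.9, 2114.8, 2332.1 and 3286.6 in the 4 males. In old wild type they were 8923.9 and 9245.4 in females and 3188.6, 3367.3 and 4551.8 in males. Females and males did not overlap at either age, a pattern that 12.3% of genes showed in young and 13.7% in old libraries for females above males. All 4 females were of batch A. The fitted female-minus-male difference was 1.49 ± 0.26 (SE) on the log2 scale over 11 libraries, or 2.81-fold (limma adjusted p = 0.0267). Fmo1 was the 1 gene of the 4 that passed this test, which 0.583% of all genes passed, 0.315% as higher in females. The call was lost when any of 7 of the 11 libraries was left out. These were young libraries 1, 3, 4 and 6 and old libraries 1, 3 and 5, by the labels' replicate numbers. The log2 fold change stayed between 1.38 and 1.65 when 1 library was left out. With the replicate number of the labels as a block it was 1.44 with limma adjusted p = 0.172.

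Fmo2 showed the wider gap between the sexes in young liver, but not in old liver. Young females had 1601.9 and 1692.7 normalized counts and young males 149.5, 208.8, 209.1 and 218.8, a ratio of means of 8.38. In old liver the females, at 856.9 and 1112.3, lay within the range of the males, at 556.2, 813.7 and 1574.3, with means of 985 ± 181 (SD, n = 2) and 981 ± 529 (SD, n = 3). Both old females and the old male at 1574.3 were of batch A, and the males at 556.2 and 813.7 were of batch B. Over both ages the sex difference of Fmo2 was 1.41 ± 0.61 on the log2 scale (limma adjusted p = 0.571). Fmo4 had 354.0 and 450.3 in young females and 102.9 to 234.3 in young males, with a difference over both ages of 0.73 ± 0.38 (limma adjusted p = 0.686). Fmo5 overlapped between the sexes at both ages, with a difference of -0.37 ± 0.44 (limma adjusted p = 0.866). These 3 differences did not pass the test.

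The transgene was examined against wild type of the same age. Fmo2 rose in transgenic liver and was the 1 gene of the 4 to pass the test. The 5 transgenic males had 641.3, 776.2, 997.2, 1708.7 and 2207.5 normalized counts of Fmo2, and the transgenic female had 7860.8. All 5 transgenic males lay above all 4 young wild-type males, as 2.85% of genes did, with a ratio of means of 6.44. The transgenic female stood 4.77-fold above the mean of the 2 young wild-type females and was the highest of the 17 libraries. Adjusted for batch and sex, the log2 fold change was 2.36 ± 0.43 (SE, limma adjusted p = 0.00264), or 5.13-fold, and Fmo2 ranked 210th by p among 14588 genes. This test called 6.71% of all genes, and 2.89% of all genes as higher. The authors' deposited table gives a log2 fold change of 2.55 with an adjusted p of 5.83e-24.

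The rise of Fmo2 was present in both batches. In batch A alone it was 2.65 ± 0.63 with limma adjusted p = 0.0586, and in batch B alone, all male, 2.16 ± 0.32 with limma adjusted p = 0.0325. Among males it was 2.63 ± 0.26 (limma adjusted p = 0.00016), where 2.23% of genes were called higher. Without batch and sex as terms the log2 fold change was 1.98 ± 0.67 and did not pass (limma adjusted p = 0.132). The transgene effect on Fmo2 did not pass a test for a difference between sexes (-0.38 ± 0.49, limma adjusted p = 0.775) or between batches (-0.50 ± 0.80, limma adjusted p = 0.793). The transgenic group holds 1 female, so a difference by sex cannot be told apart from a trait of that animal.

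Fmo1, Fmo4 and Fmo5 did not pass the test with the transgene. Fmo1 had 2452.8, 3774.8, 4286.4, 5080.9 and 6405.5 normalized counts in transgenic males, which overlapped the young wild-type males, and 4964.3 in the transgenic female. Both young wild-type females had more Fmo1 than that female, while 4 of the 5 transgenic males lay above the highest young wild-type male. The log2 fold change of Fmo1 was 0.53 ± 0.27 (limma adjusted p = 0.276). Its difference between sexes was -1.69 ± 0.49 (limma adjusted p = 0.116), and 1.3% of genes passed that test. In females alone, the 1 transgenic against the 2 wild-type libraries, Fmo1 was lower by a log2 value of -0.77 ± 0.17 (limma adjusted p = 0.0495), in a fit that called 2094 genes and assumes that the lone library varies like the others. Fmo4, the gene with the seed match, had 88.8, 115.3, 125.8, 303.4 and 422.0 in transgenic males and 289.7 in the female. Its log2 fold change was 0.04 ± 0.30 (limma adjusted p = 0.959), a value that turned below 0 without young library 2 or 5 or transgenic library 1 or 2. Fmo5, the most abundant of the 4, had 9686.5, 15704.7, 24933.4, 29467.9 and 38732.1 in transgenic males and 28881.8 in the female. The log2 fold change of Fmo5 was 0.47 ± 0.33 (limma adjusted p = 0.456). Transgenic and wild-type libraries overlapped for both.

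**Figure D2:**
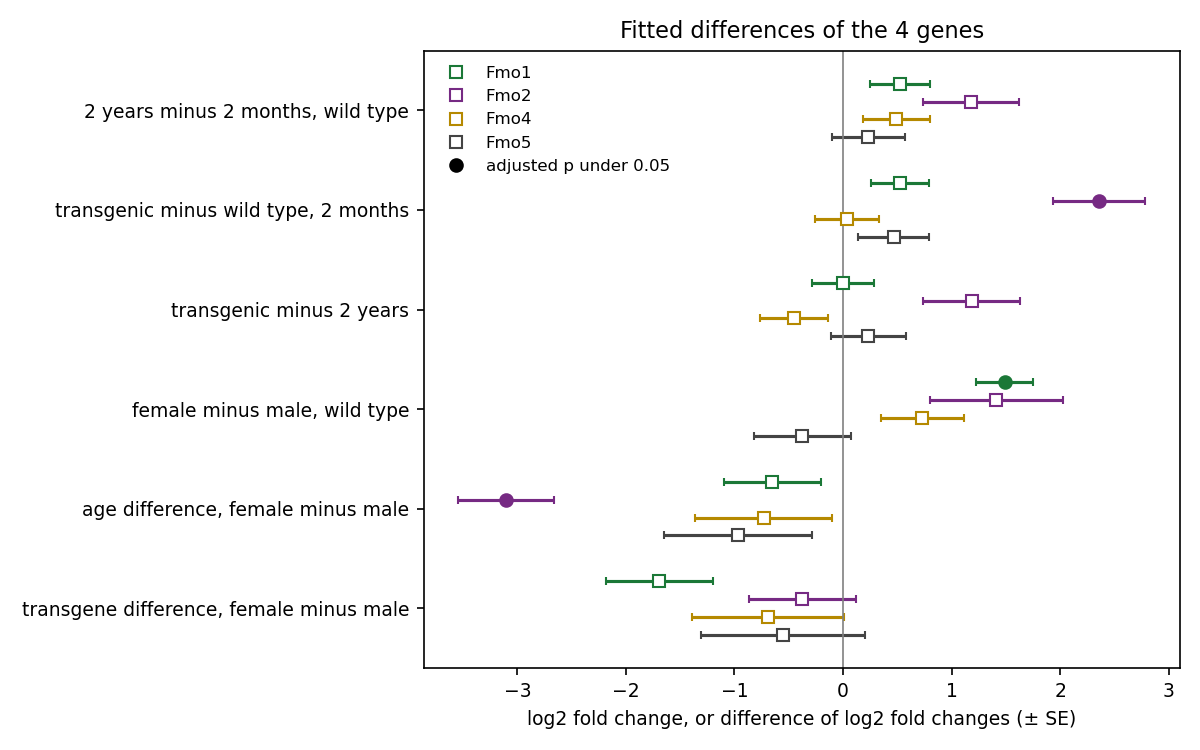
Fitted log2 fold changes of the 4 genes with standard errors (horizontal axis), adjusted for batch and, where both sexes enter, sex, for 4 comparisons and for the differences of the age and transgene effects between sexes (rows). Filled circles passed at an adjusted p under 0.05: Fmo2 with the transgene at 2.36, Fmo1 by sex at 1.49 and the age-by-sex term of Fmo2 at -3.10.

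Age was examined in wild type, 2 years against 2 months. None of the 4 genes passed the limma test over all libraries, where 0.144% of genes did. Fmo2 alone had an unadjusted p under 0.05, at 1.18 ± 0.44 with limma adjusted p = 0.494, and none of the 4 passed in the authors' deposited table either. Fmo1 had 0.53 ± 0.28 (limma adjusted p = 0.595), Fmo4 0.49 ± 0.31 (limma adjusted p = 0.634) and Fmo5 0.23 ± 0.34 (limma adjusted p = 0.829). Old males had 289.7, 394.8 and 123.4 normalized counts of Fmo4 and 28973.9, 26777.5 and 9205.8 of Fmo5, and old females 355.5 and 465.7 of Fmo4 and 15663.7 and 28033.4 of Fmo5. For both genes these overlapped the young libraries.

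The difference of Fmo2 with age was not alike in the 2 sexes. In females alone it did not pass the test. All 3 old males lay above all 4 young males, as 3.86% of genes did, with a ratio of means of 4.99. Both old females lay below both young females, as 25.4% of genes did with 2 libraries a side, with a ratio of means of 0.598. These 4 females were all of batch A. The age effect in females minus that in males was -3.10 ± 0.44 on the log2 scale (SE, limma adjusted p = 0.0387). By unadjusted p this was the smallest among 14588 genes, and 2 genes passed in all, both lower (0.0137%). The other was Cyp2c54, a cytochrome P450 with close copies in the genome, named because it shared the call, at -5.63 ± 0.81 (limma adjusted p = 0.0387).

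The Fmo2 term kept its sign in every alternative run, and its call did not hold in all of them. In batch A alone it was -3.63 with limma adjusted p = 0.0498, and over 16 fits that each left out 1 library it lay between -3.34 and -2.91. The call was lost in 12 of these 16 fits (without young library 2, 3, 4 or 5, old library 1, 2, 3 or 4, or transgenic library 2, 4, 5 or 6), and limma adjusted p ranged from 0.0125 to 0.382. With the replicate block it was -2.53 with limma adjusted p = 0.72. Among males alone Fmo2 rose with age by 2.35 ± 0.29 (limma adjusted p = 0.0133), where 0.171% of genes were called higher. Leaving out old male library 4 as well gave 2.26 with limma adjusted p = 0.0678. Among females alone, 2 against 2, the value was -0.75 ± 0.18 (limma adjusted p = 0.315). For Fmo1, Fmo4 and Fmo5 the age-by-sex terms were -0.65 ± 0.45, -0.73 ± 0.63 and -0.97 ± 0.68, and did not pass.

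The age and transgene comparisons share the young wild-type libraries, so the transgenic and old libraries were also compared with each other. None of the 4 genes passed this limma test, where 2.55% of genes did, and Fmo2 alone had an unadjusted p under 0.05. Fmo2 was 1.18 ± 0.45 higher in transgenic liver (limma adjusted p = 0.206), Fmo1 differed by -0.00 ± 0.28, Fmo4 by -0.45 ± 0.31 and Fmo5 by 0.23 ± 0.34. In males alone the Fmo2 difference was 0.28 ± 0.28 (limma adjusted p = 0.669), as the 5 transgenic males (641.3 to 2207.5) and the 3 old males (556.2 to 1574.3) overlapped. The transgenic female, at 7860.8, stood above both old females.

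The 4 messages were related unevenly across libraries. Over 17 libraries the log2 values of Fmo1 and Fmo4 had a Pearson r of 0.75 and those of Fmo4 and Fmo5 0.73, and after group, batch and sex were taken out these were 0.58 and 0.63. For Fmo1 and Fmo2 r was 0.65, and 0.10 after that adjustment. These are descriptions over libraries that share batch and sex. By highest r over the 17 libraries, the messages most like Fmo1 were the cytochrome P450 Cyp2c68 (0.91), the protease Corin (0.88) and the steroid 5-beta-reductase Akr1d1 (0.88), with r of 0.79, 0.66 and 0.86 after adjustment. Among those most like Fmo2 were the organic anion transporter Slco1a4 (0.94) and Cables1 (0.91), with 0.78 and 0.82 after adjustment. Those most like Fmo4 were the organic cation exporter Slc47a1 (0.92), the nuclear receptor Esrrg (0.90) and the dimethylglycine dehydrogenase Dmgdh (0.89), with 0.76, 0.71 and 0.75 after adjustment. For Fmo5 they were Arfgef2 (0.97), the WNT co-receptor Lrp5 (0.96) and Heatr5b (0.96), with r of 0.92 to 0.94 after adjustment.

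**Figure D3:**
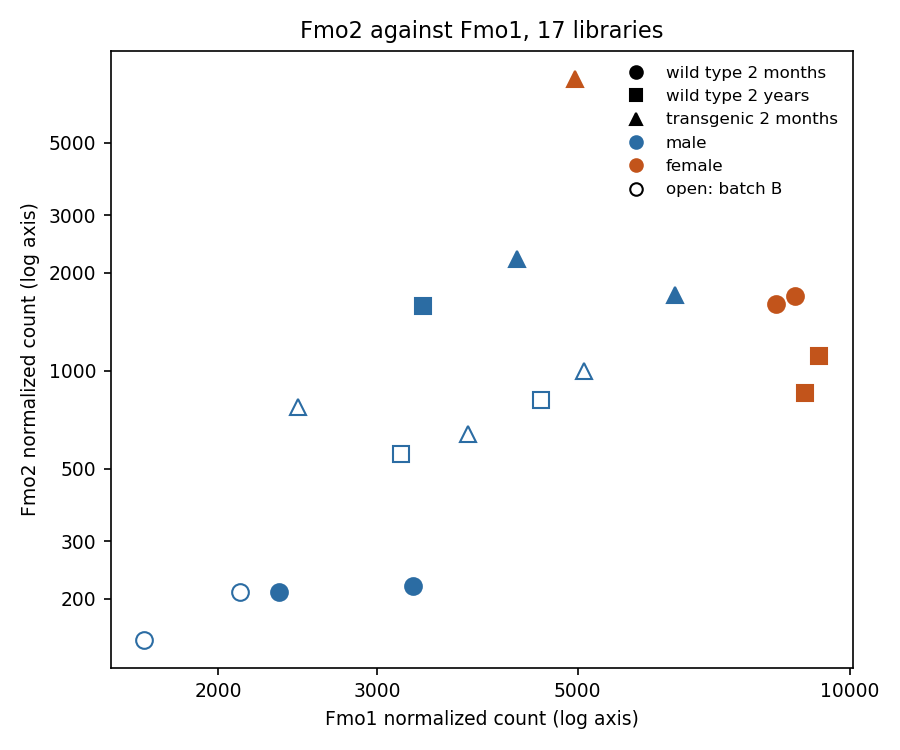
Normalized counts of Fmo2 (vertical, log axis) against Fmo1 (horizontal, log axis) in 17 libraries. Colour marks sex, shape marks group and open symbols are batch B. The 4 young wild-type males lie at the lower left, the 4 wild-type females at the right, and the transgenic female highest, with Fmo2 at 7860.8.

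The region before 1 of the 2 RefSeq starts of Fmo2 (GRCm38.p6) is shown because this gene carried the called differences with the transgene. The 250 bases lie at chr1:162898759-162899008 on the minus strand.
Fmo2 upstream: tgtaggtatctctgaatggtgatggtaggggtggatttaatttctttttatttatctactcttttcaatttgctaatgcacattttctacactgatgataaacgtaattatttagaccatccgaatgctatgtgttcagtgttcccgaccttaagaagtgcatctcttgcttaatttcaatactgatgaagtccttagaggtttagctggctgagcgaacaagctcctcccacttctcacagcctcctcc
On both strands it was searched for TTCNNNGAA, the palindrome bound by STAT5, which relays growth hormone signals, and for GCGTG, the core of the element bound by the aryl hydrocarbon receptor. The first is present in 7.0% and the second in 28.2% of 32851 RefSeq windows of this length. Neither is present here, nor in the window of the other start at chr1:162898494-162898743, so no base is in capitals, which says nothing about either factor's action elsewhere. The motifs were counted separately, each once a window.

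Genes that supply or work beside these enzymes were taken from 7 lists. With age none of their 76 tested members passed the limma test. The gene of each list with the smallest p was Rfk, riboflavin kinase, for flavin supply (0.30 ± 0.20), H6pd for NADPH supply (0.50 ± 0.34), Por for the other microsomal oxidation components (1.13 ± 0.41), Mat1a for the taurine pathway (0.91 ± 0.34), Aox3 for amine and sulfur handling (-1.13 ± 0.33), Nqo1 for the aryl hydrocarbon receptor list (1.12 ± 0.23) and Cux2 for liver transcription factors (3.90 ± 0.91).

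The called members of each list with the transgene are to be read against the 6.71% of all genes called, and counts of 1 or 2 genes in a list of 9 to 18 are not a result about the list. None of 5 flavin supply genes passed (median 0.14 against 0.01 over all genes), with Slc52a3, a riboflavin transporter, at 1.07 ± 0.59. Of 10 tested NADPH supply genes 1 fell and none rose (median -0.15). It was Me1, malic enzyme (-2.14 ± 0.46, limma adjusted p = 0.00882), with means ± SD of 7229 ± 2856 normalized counts in the 6 young wild-type and 1416 ± 716 in the 6 transgenic libraries. Of 7 other microsomal oxidation components 4 fell and 1 rose (median -0.80). Cyb5r3, cytochrome b5 reductase, fell by 1.64 on the log2 scale, Ephx1, microsomal epoxide hydrolase, fell by 1.18 and Pgrmc1, a haem-binding membrane protein, fell by 0.80. Por, the reductase that feeds electrons to cytochromes P450, rose by 1.44 (limma adjusted p = 0.0361).

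Of 9 tested genes around hypotaurine and taurine, which include steps of sulfur amino acid breakdown, 2 rose and none fell (median 0.24). Mat1a, which makes S-adenosylmethionine, rose from 82024 ± 27969 to 261766 ± 58766 normalized counts (1.81 ± 0.32, limma adjusted p = 0.00259), and Cth, cystathionine gamma-lyase, by 1.30 ± 0.27. Cdo1, which makes the precursor of hypotaurine, had 0.65 ± 0.24 and did not pass. Csad, of the same list, had -2.19 ± 0.70 and did not pass either. Of the 9 genes 6 had fitted values above 0. Of 17 tested genes that handle amines and sulfur compounds 5 fell and 1 rose (median -0.33). Aox3, an aldehyde oxidase, fell from 12658 ± 9836 to 1545 ± 933 (-2.96 ± 0.32, limma adjusted p = 5.7e-05) and Mgst1, a microsomal glutathione transferase, fell by 1.14. The rise was Nnmt, nicotinamide N-methyltransferase, named after its value was seen (1.60, limma adjusted p = 0.0352).

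Of 10 tested genes of the aryl hydrocarbon receptor list 1 rose and 1 fell (median -0.33). Nqo1, a quinone reductase, rose by 0.96 ± 0.22 and Cyp1a2 fell by 2.30 on the log2 scale, while Cyp1a1 had -0.46 and Tiparp 1.08, neither past the test. Of 18 liver transcription factors 1 rose and 1 fell (median 0.00). Cux2, a repressor more abundant in female mouse liver, rose by 4.83 ± 0.88, adjusted for batch and sex (limma adjusted p = 0.00272). Its means over both sexes, not adjusted, were 107 ± 148 normalized counts in young wild-type and 674 ± 401 in transgenic libraries. These lie closer together than the fitted value states. In wild type its female-minus-male difference was 3.97 ± 1.25 and did not pass. Ppara fell by 1.44. Hnf4a had 0.27 and did not pass.

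Markers of other cells moved with the groups as well, and in bulk tissue fewer cells of a type and less RNA per cell cannot be told apart. Of 9 tested neutrophil markers 8 rose with the transgene, with Mmp8, S100a8 and S100a9 at 6.03, 5.14 and 4.92 on the log2 scale. The summed level of the 10 listed markers ran from 30.1 to 490.3 in young wild type, 98.4 to 2124.8 in old and 447.5 to 44912.7 in transgenic libraries. The 2 transgenic males of batch A had neutrophil sums of 447.5 and 666.1 and Fmo2 at 2207.5 and 1708.7. The 3 transgenic males of batch B had sums of 6892.2 to 44912.7 and Fmo2 at 641.3 to 997.2. Among these males batch and neutrophil sum cannot be told apart. In young wild type the neutrophil sums were 331.2 and 490.3 in batch B and 30.1 to 92.9 in batch A. In old liver the highest, 2124.8, was of a batch A male. The transgenic female had a sum of 7568 and the highest Fmo2, 7860.8. Of 8 tested erythroid markers 5 rose, among them Tfrc and Slc4a1 at 1.95 and 4.38, and 6 had fitted values above 0. Hba-a1 and Alas2 had -2.09 ± 0.85 and -1.09 ± 0.59 and did not pass. The sum of the listed erythroid markers ran from 11351 to 161260 in young wild type and from 24446 to 1585290 in transgenic libraries. In young wild type the batch B males had the highest sums, 144502 and 161260.

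Each remaining marker list had 1 called gene with the transgene, beside the 6.71% called of all genes. Of 10 sinusoidal endothelial markers Stab2 rose by 1.44 and of 10 Kupffer cell markers Marco rose by 3.97. Of 10 stellate cell markers Col1a1 fell by 1.88, of 6 tested cholangiocyte markers Spp1 fell by 1.21 and of 7 tested B and plasma cell markers Ighm rose by 1.93. Of 10 hepatocyte markers Serpina1c fell by 1.80, of 9 pericentral markers Cyp1a2 fell by 2.30 and of 9 periportal markers Cyp2f2 fell by 2.67. Of the zonal markers, 5 of 9 pericentral (median 0.23) and 7 of 9 periportal (median 0.22) had fitted values above 0. With age 1 of all tested markers passed, Ighm at 3.27. No listed marker was at 0 in all libraries. The summed hepatocyte markers ran from 3655110 to 5106690 in young wild type and 3359350 to 5611960 in old. In transgenic libraries they ran from 2650140, in the female, to 7052810. The part of the neutrophil, erythroid and other markers in the Fmo2 values was not tested.

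Levels of Fmo4 and Fmo5 were lower in batch B. Fmo5 in young wild-type males was 23930.0 and 39186.5 normalized counts in batch A and 6202.7 and 8698.1 in batch B. The batch B minus batch A term of the fit was -1.36 ± 0.33 for Fmo5 (limma adjusted p = 0.00383) and -1.02 ± 0.30 for Fmo4 (limma adjusted p = 0.0119). For Fmo1 and Fmo2 it was -0.35 ± 0.27 and -0.81 ± 0.43 and did not pass, and 21.2% of all genes were called lower in batch B. Within batch B the age effect of Fmo5 was 1.10 and within batch A -0.26, and neither passed the test. No age or transgene effect of the 4 genes passed a limma test for a difference between batches, while 0.0206% and 0.5% of all genes did.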

How the data were processed

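The authors deposited normalized signal values (DESeq2 normalized counts, by the table's name) of 48440 Ensembl genes in 17 liver libraries. Their 2 tables of comparisons hold, per the file headers, log2 fold changes, a test score and p-values, and are named as corrected for batch and sex. STAR 2.5.3a, Salmon 0.6.0, DESeq2 and the mm10 build stand in the submitters' processing notes without their roles. Annotation and strand setting were not stated. Whole reads could not be recovered from low values (47.2% to 69.3% within 0.1 of a whole step), so depth is unknown.

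Groups, batch and sex came from the labels. Values were tested as log2(value + 1) with limma 3.58.1 in R 4.3.3 (eBayes with trend) on the 14588 genes with a mean of at least 10, with group, batch and sex as terms. The sex comparison used the 11 wild-type libraries, and differences between sexes or batches used interaction terms. P-values are two-sided, adjusted by Benjamini-Hochberg over all genes tested and called under 0.05. "Rose" and "fell" are used for called genes, and fold changes understate those of low genes. The fit was tested on simulated data. Other pseudocounts, filters, scalings, terms and subsets of libraries were tried.

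Members and lists were chosen with earlier results of these data known. The naming rule took the 4 genes, the other family rows, up to 3 called genes per list with the smallest p or else the 1 with the smallest p, and the 3 genes most correlated with each member. Other list genes named were chosen after their values were seen. Gene locations and 3′ UTR sequences come from GENCODE M21. The miR-29 sequences and the upstream windows with their positions come from RefSeq, whose promoter table held 3 of the 4 genes. One further row of the family and some genes that the rule takes are not reported here.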

Additional observations from a re-analysis of the deposited data

Results flagged for a closer look

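The age effect of Fmo2 differed between the sexes by a test of the difference itself. The interaction term, female minus male, was -3.101 on the log2 scale with limma adjusted p = 0.0387. Old males stood above all young males in 3 of 3 libraries, as 3.86% of genes did, and old females below both young females in 2 of 2, as 25.4% of genes did. The call rests on few libraries: 12 of 16 fits that left out 1 library lost it, with the term between -3.34 and -2.91.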

How the results depend on the processing

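The rise of Fmo2 with the transgene kept its direction in every alternative run. It missed the threshold without batch and sex as terms (1.98) and in batch A alone (2.65), and lay between 2.13 and 2.52 when 1 library was left out. The age effect of Fmo2 passed in males alone (2.35) and was below 0 in females alone (-0.75). Against old liver Fmo2 (3.01) and Fmo1 (-0.87) passed in females alone, a fit of 1 transgenic against 2 old libraries that called 2831 genes. The sex difference of Fmo1 missed the threshold with no filter on low values (1.49), without the eBayes trend (1.49), with equal library totals (1.52) and with the replicate block (1.44), and lay between 1.38 and 1.65 leaving out 1 library. The age-by-sex term of Fmo2 missed it without the trend (-3.10) and with the replicate block (-2.53), and lay between -3.34 and -2.91 leaving out 1 library. The cause of each change was not tested.

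Effects that did not pass over all libraries changed sign as follows. Fmo5 with age was -0.26 in batch A, -0.00457 with the replicate block, -0.38 in females, -0.0798 in batch A males and -0.0755 to 0.43 leaving out 1 library. Fmo5 by sex was 0.51 without covariates, and against old liver -0.00971 in batch B. Fmo4 with the transgene was -0.19 without covariates, -0.21 in batch B, -0.46 in females and -0.13 to 0.14 leaving out 1 library. Fmo1 with the transgene was -0.77 in females, where it passed in the opposite direction (limma adjusted p = 0.0495, 1 transgenic library). Against old liver Fmo1 was 0.0175 in batch A, 0.17 in males, 0.0614 with the replicate block, 0.64 in batch A males and -0.14 to 0.31 leaving out 1 library, and Fmo4 was 0.0305 in batch A and 0.30 in batch A males.

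Counts of called genes depended on the setting. For age (21) they were 9 with a mean of at least 50, 5 without covariates, 1 in batch A, 0 in batch B (limma, 3764 at an unadjusted p under 0.05), 41 in males, 11 with the replicate block, 280 in the authors' deposited table, 0 in females (2234 unadjusted), 0 in batch A males (748 unadjusted), 4 in males leaving out old library 4, and 9 to 37 leaving out 1 library. For the transgene (979) they were 421 without covariates, 495 in batch A, 263 in batch B, 2211 in the authors' deposited table, 2094 in females, 103 in batch A males and 653 to 1311 leaving out 1 library. For transgenic against old (372) they were 139 without covariates, 175 in batch A, 45 in batch B, 175 in males, 247 with the block, 2831 in females, 28 in batch A males and 161 to 525 leaving out 1 library. For sex (85) they were 44 with no filter, 31 with the block and 46 to 139 leaving out 1 library. For age by sex (2) they were 4 with a pseudocount of 10, 5 with no filter, 6 in batch A, 0 without the trend (2818 unadjusted), 0 with the block (953 unadjusted) and 0 to 16 leaving out 1 library. For transgene by sex (189) they were 440 with no filter, 52 in batch A, 25 with the block and 12 to 408 leaving out 1 library.

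Replicate numbers were not taken to pair libraries, and the values do not settle whether they do. Deviations of 16 same-numbered pairs correlated at -0.23 to 0.59, 13 of them over 0.1. The best correlate shared the number in 10 of 32 cases, and the share expected without pairing is not given. Results with the replicate number as a block are given above. The fits on females alone, on batch A males, on males without old library 4 and the alternatives of the interaction terms were chosen after seeing the data. Sex could not be fitted in batch B or in males, nor the interactions with sex without the lone transgenic female, who in the fit on females is assumed to vary like the others.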
